A study of Mus musculus with 4 samples.

Results

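The 9 genes described here encode S100 alarmins and antimicrobial proteins of the skin: S100a7a, S100a8, S100a9, Lcn2, Slpi, Camp, Defb4, Defb14 and Wfdc12. They were taken as a list of names, and chromatin regions were assigned to them by position: the peaks of 4 ATAC-seq libraries were merged wherever they overlapped by at least 1 bp, and a merged region was kept if it overlapped the body of a listed gene extended by 20 kb on each side. This gave 34 regions of 82641 in the whole atlas. The windows of S100a7a, S100a8 and S100a9 overlapped on chromosome 3, as did those of Defb14 and Defb4 on chromosome 8, and a region shared by several windows was counted once.

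The libraries came from keratinocytes, the epithelial cells of the epidermis, of female mice 8 to 12 weeks old on a C57BL/6 background. WT denotes littermate controls, labelled Wild Type, and Mapk8-KO denotes mice in which a floxed Mapk8 gene, encoding the kinase JNK1, was deleted by a Cre recombinase driven from the keratin 14 promoter, which is active in the basal epidermis. All mice of both genotypes had received a cream with 5% imiquimod, a Toll-like receptor agonist that causes psoriasis-like inflammation, daily for 8 days. The labels name whole skin as the source and keratinocytes as the cell type, and per the study's methods cells were sorted from digested skin as EpCam-positive, CD49f-high, and 2 libraries were made per genotype, so that every comparison was between inflamed skin with and without epidermal JNK1 and none was with untreated skin. A figure legend of the study calls the samples of each group independent without naming the mice. The p-values below measure only the spread between these libraries.

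S100A8 and S100A9 form calprotectin, a calcium-binding dimer that withholds metal ions from microbes and acts as an alarm signal when released from stressed epithelium. Lipocalin 2, the cathelicidin precursor, the beta-defensins and the whey acidic protein family members SLPI and WFDC12 restrict bacteria by other routes, and many of these genes are known to be switched on in keratinocytes by interleukin 17 and interleukin 22. JNK1 phosphorylates c-Jun, a subunit of AP-1, which binds DNA at TGAGTCA or TGACTCA sites. ATAC-seq marks DNA that the Tn5 transposase can reach, and so reports where chromatin is open, not how much RNA is made.

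Each value below is a summit pileup, the number of sequenced fragments stacked over the highest point of a peak, recovered from the deposited enrichment values. The libraries differed in depth, with relative depths of 1.00, 0.694, 1.10 and 0.612 for WT 1, WT 2, Mapk8-KO 1 and Mapk8-KO 2, so depth-scaled pileups are given for comparisons. Peak numbers ran from 49856 in Mapk8-KO 2 to 69927 in WT 1. The start site of Mapk8 itself was called in all 4 libraries, with pileups of 73 to 109 fragments, and the peak lists do not show the deleted exons. Start sites of 5 of 6 keratinocyte marker genes were called in every library, the exception being Krt5, absent from the Mapk8-KO 2 list. Among 10 neutrophil and myeloid markers, genes of cells that also make S100A8 and S100A9, 9 were called in no library and only Cxcr2 was called, at depth-scaled pileups of 47.3 to 63.7, and none of 4 other leukocyte markers was called. Both fibroblast markers, Pdgfra and Col1a1, and 1 of 2 endothelial markers, Pecam1, were called in all 4 libraries, and the other endothelial marker, Cdh5, in none. The summed depth-scaled pileup of the fibroblast pair was 52.1 to 61.5 fragments. The stain for the sort also held antibodies, all in the PE channel, to CD45, CD31 (encoded by Pecam1) and CD140a (encoded by Pdgfra), and the part of these cells in any difference was not tested. The summed level of the keratinocyte markers was 229 and 191 in WT and 351 and 338 in Mapk8-KO, of which Krt14 alone gave 31.4 and 20.3 in WT against 149 and 147 in Mapk8-KO. Without Krt14 the sums were 198 and 171 in WT and 201 and 190 in Mapk8-KO. The Mapk8-KO mice carry the Cre transgene with its keratin 14 promoter, and its part in the Krt14 value was not tested. In bulk libraries of this kind, fewer cells with an open site and a less open site in each cell cannot be told apart.

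Sequence is shown first for the sites on which the results turn: the gap between S100a8 and S100a9, where the genotypes differed most, the S100a9 promoter, which had the highest percentile of fold enrichment averaged over the 4 libraries (88.7), and the Defb4 upstream region, called in WT only. Capitals mark a match to AP-1 (TGAGTCA or TGACTCA), C/EBP (TTGCNNAA), STAT (TTCNNNGAA) or the NF-kB motif, each searched on both strands within 100 bp of a summit. All are the plus strand of the RefSeq GRCm38 genome, the build (mm10) of the peak files. The first line lies at chr3:90680431-90680631 around the WT summit of the region between S100a8 and S100a9, and the second at chr3:90680038-90680238 around its Mapk8-KO 1 summit. The S100a9 promoter line is chr3:90695765-90695965, and the Defb4 line is chr8:19197159-19197359.
S100a8-S100a9 gap, WT summit: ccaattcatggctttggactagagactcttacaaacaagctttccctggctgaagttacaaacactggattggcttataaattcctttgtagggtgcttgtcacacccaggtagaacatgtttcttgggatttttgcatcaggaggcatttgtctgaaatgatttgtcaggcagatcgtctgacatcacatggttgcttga
S100a8-S100a9 gap, Mapk8-KO summit: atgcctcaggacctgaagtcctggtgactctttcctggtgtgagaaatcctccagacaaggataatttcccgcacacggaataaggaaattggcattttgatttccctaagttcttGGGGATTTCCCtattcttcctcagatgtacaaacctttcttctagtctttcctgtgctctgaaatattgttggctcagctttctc
S100a9 promoter: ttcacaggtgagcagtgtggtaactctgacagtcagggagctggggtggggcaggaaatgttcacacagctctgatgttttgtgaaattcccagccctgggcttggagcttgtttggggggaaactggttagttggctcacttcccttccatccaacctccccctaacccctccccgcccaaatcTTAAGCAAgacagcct
Defb4 upstream region: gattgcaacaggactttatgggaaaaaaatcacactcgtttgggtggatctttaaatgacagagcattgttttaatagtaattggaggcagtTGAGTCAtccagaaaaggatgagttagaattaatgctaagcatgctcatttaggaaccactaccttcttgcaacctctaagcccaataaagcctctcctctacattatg
The WT summit of the gap region held none of the motifs. The window around the Mapk8-KO summit, searched after the summits had been seen to differ, held 2 overlapping NF-kB matches on the same 11 letters, 21 and 22 bp from the summit, a motif found in 5.54% of all atlas windows. The S100a9 promoter held a C/EBP match on the minus strand, 89 bp from its summit, and the Defb4 region held an AP-1 match 5 bp from its summit. A match describes letters and is not evidence of binding.

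The loci were called about as often as the rest of the genome. Of the 34 regions, 29 were called in WT 1 and 24 in WT 2, against 26 and 21 in the Mapk8-KO libraries. In WT 1, WT 2, Mapk8-KO 1 and Mapk8-KO 2 that is 85.3%, 70.6%, 76.5% and 61.8%, beside 83.8%, 65.2%, 83.2% and 59.1% of the atlas. Only Mapk8-KO 1 lay below its atlas share. The mean was 26.5 ± 3.54 regions in WT and 23.5 ± 3.54 in Mapk8-KO (SD, n = 2). This difference was smaller than the spread between libraries (two-sided exact permutation test, p = 0.667). With 2 against 2 libraries the test cannot give less than 0.333. In all 4 libraries 17 of the 34 regions were called, as were 48.6% of the atlas, and 8 were called in 1 library only, as were 21.7% of the atlas. Exactly 1 region, upstream of Defb4, was called in both WT and neither Mapk8-KO library, a class that holds 2.17% of the atlas. None was called in both Mapk8-KO and neither WT library, beside 1.65% of the atlas. These counts moved with single libraries. The WT-specific count was 6 without Mapk8-KO 1, 4 without WT 2 and 2 without WT 1. The Mapk8-KO-specific count was 2 without either Mapk8-KO library, so that without Mapk8-KO 2 it exceeded the WT-specific count of 1. With 1 library left in a genotype the classes are less strict over the whole atlas too, so the shares above do not apply to these counts. Another 5 regions were called everywhere except in Mapk8-KO 2, a class that holds 9.91% of the atlas, and Mapk8-KO 2 was the shallowest library.

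**Figure D1:**
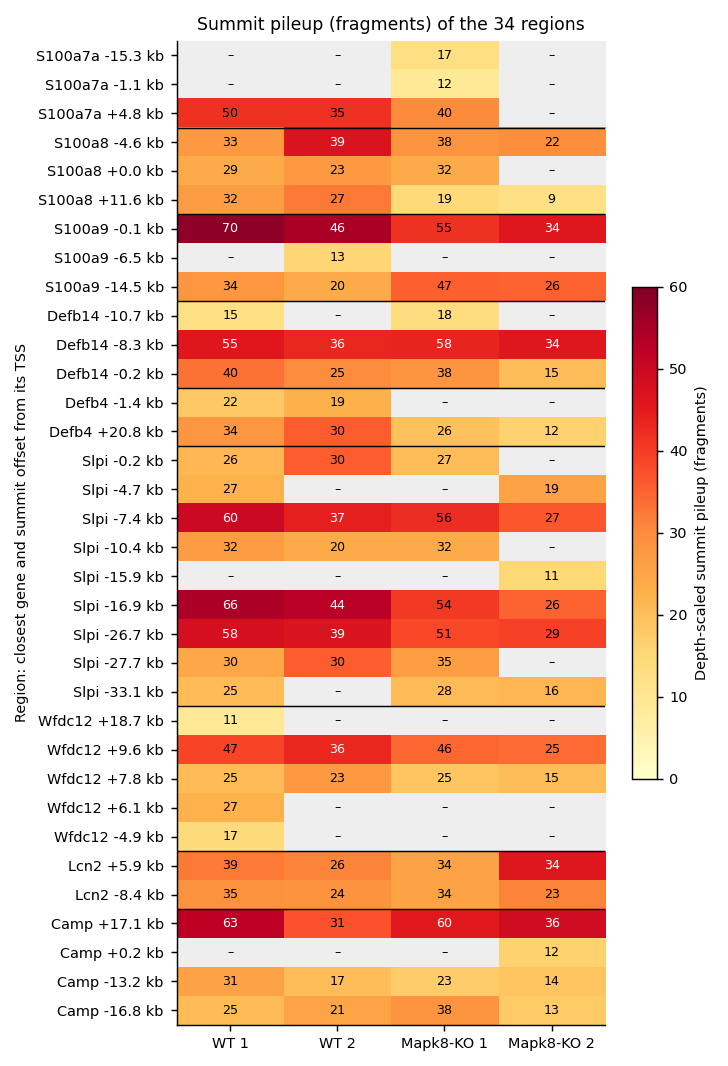
Summit pileup in fragments (printed numbers) of the 34 regions in the 4 libraries, ordered by gene. Rows are named by the closest listed gene and the offset of the strongest summit from its transcription start site in kb (minus for upstream), colour gives the depth-scaled pileup, and grey cells with a dash were not called. The 17 complete rows are the regions called in every library, and the 5 rows with a dash in Mapk8-KO 2 only include the start sites of S100a8 and Slpi.

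Start sites of the 9 genes were unequally open. S100a9 and Defb14 had a region called in all 4 libraries within 2 kb of the start, as did 55.0% of 21911 protein-coding genes. Lcn2 and Wfdc12 had none in any library, as was the case for 35.2% of protein-coding genes. S100a8 and Slpi were called in every library but Mapk8-KO 2, Defb4 in the WT libraries, S100a7a in Mapk8-KO 1 only and Camp in Mapk8-KO 2 only. The S100a7a and Camp calls each rested on 12 fragments (95% Poisson interval 6.20 to 21.0). At its Mapk8-KO 1 level the S100a7a region would have held 10.9, 7.56 and 6.67 fragments in WT 1, WT 2 and Mapk8-KO 2. About 10, 8 and 8 were needed there for a peak to be listed, so that call was near the limit. At its Mapk8-KO 2 level the Camp region would have held 19.6, 13.6 and 21.6 in WT 1, WT 2 and Mapk8-KO 1, where about 10, 9 and 11 were needed.

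Regions called in all 4 libraries were compared in one fit of limma over 40159 such regions, 17 of them at these loci. Of the 17, 13 had a lower pileup in Mapk8-KO, as did 42.6% of all regions in the fit. The median log2 difference (Mapk8-KO minus WT) was -0.29, with a range of -1.15 to 0.44 and a median SE of 0.27, beside a median of 0.05 over all regions. The median was -0.01 with a window of 50 kb in place of 20 kb, -0.06 on fold enrichment in place of pileup and -0.16 without WT 2. In 10 of the 17 regions both WT libraries stood above both Mapk8-KO libraries on the depth-scaled pileup, where 16.9% of all regions did so. In 1 region both Mapk8-KO libraries stood above both WT libraries, where 24.6% of all regions did so. Scaling the libraries by the median of their ratios left these counts at 10 and 1, beside 20.3% and 20.3% of all regions. Without Mapk8-KO 2 the counts were 12 and 2, beside 30.8% and 36.3%. Single regions rarely passed the test: 1 region was lower in Mapk8-KO at an adjusted p below 0.05, where 0.496% of all regions were, and none was higher, where 0.110% of all regions were. At an unadjusted limma p below 0.05 there were 3 of the 17 regions, all lower in Mapk8-KO, beside 4522 of all 40159 regions in either direction. By rank of fold enrichment within each library's own list, 3 regions stood at least 10 percentile points higher in both WT than in either Mapk8-KO library, where 4.65% of all regions did, and none the other way, where 4.07% did. Neighbouring regions of one locus share their libraries and chromatin and are not independent.

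**Figure D2:**
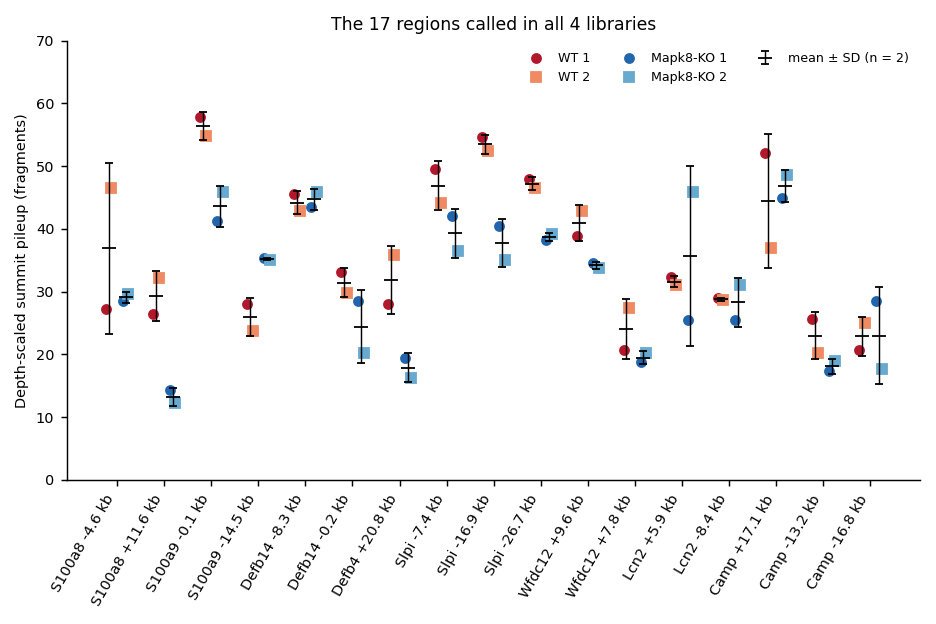
Depth-scaled summit pileup (fragments) of the 17 regions called in all 4 libraries, with 1 point per library and black bars for the mean ± SD of each genotype (n = 2). The WT points lie above both Mapk8-KO points in 10 regions, most widely at the S100a8 region 11.6 kb downstream of its start, where WT lies at 26.5 and 32.2 and Mapk8-KO at 14.3 and 12.2.

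The alarmin genes S100a7a, S100a8 and S100a9 lie in this order on chromosome 3, and 9 regions fell in their windows, 4 of them called in all libraries. The largest difference of the whole set lay here, at chr3:90679970-90680739, in the gap between the convergent S100a8 and S100a9 genes, 11.6 kb downstream of the S100a8 start. Its pileup was 32 fragments in WT 1 and 27 in WT 2, against 19 in Mapk8-KO 1 and 9 in the second Mapk8-KO library. The last value was near the lowest pileup in the whole Mapk8-KO 2 list, 8 fragments. Both WT libraries stood above both Mapk8-KO libraries, and exact Poisson intervals, which cover counting error only, were 21.9 to 45.2 and 17.8 to 39.3 in WT, against 11.4 to 29.7 and 4.12 to 17.1 in Mapk8-KO. Scaled for depth, the level was 29.3 ± 4.04 in WT and 13.2 ± 1.49 in Mapk8-KO (SD, n = 2). On the log2 pileup the two-sided exact permutation test gave p = 0.333, the least possible with 2 against 2 libraries.

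The log2 difference of that region was -1.15 with an SE of 0.31 (limma with Benjamini-Hochberg adjustment over all regions, adjusted p = 0.0484), and only 44 of the 40159 regions, 0.110%, had a lower one. Within each library's own ranking it stood at percentiles 58.5 and 49.4 in WT, against 11.9 and 2.01 in Mapk8-KO. The direction held in every setting in which the region was compared, but the call rested on the choice of fit and of libraries. With limma the adjusted p was 0.169 without a trend of the variance on the level, 0.102 after quantile normalization, 0.0719 after scaling by the median of ratios and 0.302 on fold enrichment in place of pileup. Left out singly, WT 1 gave an adjusted p of 0.221, WT 2 of 0.747 and Mapk8-KO 2 of 0.444 in limma, whereas leaving out Mapk8-KO 1 gave 0.0179. A block on the replicate number gave an adjusted p of 0.0226 in limma.

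The 2 genotypes did not peak at the same point of this region. Summits of the WT libraries lay 11 bp apart, those of the Mapk8-KO libraries 56 bp apart, and the closest WT and Mapk8-KO summits 337 bp apart, on the side towards S100a8. The Mapk8-KO 2 peak spanned chr3:90680132-90680338 and did not reach the WT summits, whereas the Mapk8-KO 1 peak did cover them with its own summit elsewhere. The pileups of the genotypes were therefore read at different points, and the Mapk8-KO pileup at the WT summit is not given by the lists beyond being no higher than the listed summit in Mapk8-KO 1. Genotype summits at least 300 bp apart, with same-genotype summits within 100 bp, occurred at 1 of the 17 regions and at 0.309% of all regions. Those distances were set after the pattern had been seen. The WT and Mapk8-KO windows are the first and second of the sequences above.

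**Figure D3:**
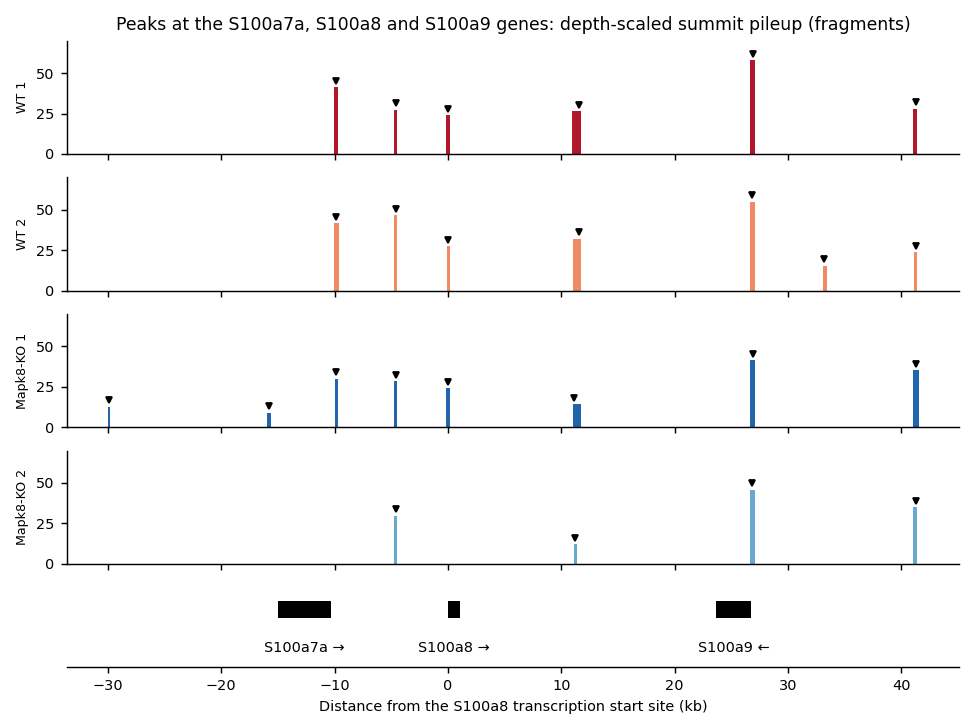
Peaks of each library at the S100a7a, S100a8 and S100a9 genes, by distance from the S100a8 transcription start site in kb. Bars span each peak at a height equal to its depth-scaled summit pileup (fragments), black triangles mark summits, and black boxes at the bottom are the genes with their direction. The peak between S100a8 and S100a9 is lower in both Mapk8-KO libraries and its summit lies further to the left there, and the S100a8 start and the peak downstream of S100a7a have no bar in Mapk8-KO 2.

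The S100a9 promoter was the most enriched of the genes' start sites in each library. At chr3:90695629-90696090 its pileup was 70 and 46 fragments in the WT libraries and 55 and 34 in the Mapk8-KO libraries, or 57.9 and 54.8 against 41.3 and 45.9 after depth scaling. Its percentile was 95 and 84.7 in WT and 88.8 and 86.4 in Mapk8-KO, so it ranked high in every library and the ranks of the genotypes overlapped. The log2 difference of -0.37, SE 0.22, did not pass the test (limma, adjusted p = 0.533). Of 14521 other start site regions, those with the most similar percentiles in the 4 libraries belonged to Triqk, at a distance of 2.05 percentile points, Gm25842 at 3.18, Mpv17l2 at 3.86, Rsl24d1 at 3.92 and Kcnab2 at 3.96.

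The S100a8 start site, chr3:90668771-90669167, held 29 and 23 fragments in WT and 32 in Mapk8-KO 1 and was not called in Mapk8-KO 2. At the level of the other libraries 18.6 fragments would have been found in Mapk8-KO 2, where a peak needed about 9 to be listed. Its depth-scaled level was 24 in Mapk8-KO 1 and likewise 24 in WT 1, with 27.4 in WT 2, so that the call was missing from 1 library and not from both of the genotype. The region 4.6 kb upstream of S100a8 held 33, 39, 38 and 22 fragments in WT 1, WT 2, Mapk8-KO 1 and Mapk8-KO 2, and its percentiles of 45.8 and 70.6 in WT overlapped those of 50.7 and 59.3 in Mapk8-KO.

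S100a7a encodes the mouse relative of psoriasin. A region 4.8 kb downstream of its start, at chr3:90658946-90659399, held 50 and 35 fragments in WT and 40 in Mapk8-KO 1 and was not called in the second Mapk8-KO library. Here 27.9 fragments would have been found in Mapk8-KO 2 at the level of the other libraries, against a listing minimum of 9. Both WT libraries, at depth-scaled levels of 41.4 and 41.7, stood above Mapk8-KO 1 at 30.0. An AP-1 match, in capitals, lay 37 bp from its summit, and the sequence, chr3:90658991-90659191, is shown because this region combined the motif with the largest expected pileup among the regions missing from Mapk8-KO 2.
S100a7a downstream region: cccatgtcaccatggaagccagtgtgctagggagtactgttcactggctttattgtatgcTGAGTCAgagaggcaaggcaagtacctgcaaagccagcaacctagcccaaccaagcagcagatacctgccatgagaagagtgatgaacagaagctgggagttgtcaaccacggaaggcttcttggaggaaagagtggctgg
A second AP-1 match at this locus lay in a region 15.3 kb upstream of S100a7a that was called in Mapk8-KO 1 alone, with 17 fragments. Upstream of S100a9, a region at 6.5 kb was called in WT 2 alone, with 13 fragments. The region 14.5 kb upstream of S100a9 lay 411 bp from the start of the predicted gene Gm42579. On the depth-scaled pileup it was the only one of the 17 with both Mapk8-KO libraries, at 35.3 and 35.1, above both WT libraries, at 28.1 and 23.8. Before scaling its pileup was 34 and 20 fragments in the WT and 47 and 26 in the Mapk8-KO libraries. The log2 difference was 0.44 with an SE of 0.27 (limma, adjusted p = 0.556).

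The beta-defensin genes Defb14 and Defb4 encode small cationic peptides and lie next to each other on chromosome 8. Their windows held 5 regions, 3 of them called in all libraries. The Defb4 upstream region, chr8:19197099-19197307, with its summit 1.4 kb before the start, was the only region specific to a genotype: 22 fragments in WT 1, 19 in WT 2 and no call in either Mapk8-KO library. At the WT level 27.2 fragments would have been found in Mapk8-KO 1 and 15.1 in Mapk8-KO 2, against listing minimums of 12 and 9. It was a weak peak in WT too, at percentile 24.1 of the whole WT 1 list and 39.6 of the WT 2 list, and with all lists cut to the length of the shortest its WT 1 peak was dropped and it was no longer specific.

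The region 20.8 kb downstream of the Defb4 start, chr8:19219362-19219825, had the second largest difference of the set. It held 34 and 30 fragments in the WT libraries and 26 and 12 in the Mapk8-KO libraries, and after depth scaling both WT libraries, at 28.1 and 35.8, stood above both Mapk8-KO libraries, at 19.5 and 16.2. Percentiles of 51.7 and 56.9 in WT faced 30.3 and 10.6 in Mapk8-KO. The log2 difference was -0.83, SE 0.30, which did not pass after adjustment (limma, adjusted p = 0.194). Of all regions, 0.772% had a lower difference. Summits of the genotypes lay at least 43 bp apart here. Defb6, another beta-defensin, has the nearest start, 5653 bp away. Its window, chr8:19219446-19219646, is shown for the STAT match, TTCTCTGAA in capitals, 56 bp from the summit.
Defb4 downstream region: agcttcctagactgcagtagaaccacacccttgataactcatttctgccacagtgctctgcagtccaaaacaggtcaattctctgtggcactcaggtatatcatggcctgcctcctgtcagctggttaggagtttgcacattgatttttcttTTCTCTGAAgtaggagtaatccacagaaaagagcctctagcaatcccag
The Defb14 start site, chr8:19193987-19194369, held 40, 25, 38 and 15 fragments in WT 1, WT 2, Mapk8-KO 1 and Mapk8-KO 2. Its percentiles were 48.4, 48.1, 57.6 and 24.7, so that 1 Mapk8-KO library ranked above and the other below both WT libraries. The log2 difference was -0.39 with an SE of 0.28 (limma, adjusted p = 0.643). The region of this locus with the highest average percentile, 8.3 kb upstream of Defb14 in an exon of the predicted gene Gm39139, held 55 and 36 fragments in WT and 58 and 34 in Mapk8-KO, a log2 difference of 0.02 with an SE of 0.23.

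Slpi encodes an inhibitor of neutrophil elastase with antimicrobial activity of its own. Its window was long, since 1 transcript outside the basic annotation extends the gene to 35026 bp, and distances here are from the start of the short basic transcripts, so the regions 4.7 to 27.7 kb upstream of it lie within the annotated gene. The window held 9 regions, 3 called in all libraries. Of these, chr2:164372810-164373712, 16.9 kb upstream, had the highest percentile averaged over the 4 libraries (81.3). It held 66 and 44 fragments in WT and 54 and 26 in Mapk8-KO. Its depth-scaled level was 54.6 and 52.5 in WT, above the 40.5 and 35.1 of Mapk8-KO, and its percentile was 92.9 and 93.7 in WT against 78.2 and 60.3 in Mapk8-KO. Summits of all libraries lay within 20 bp. The log2 difference of -0.50, SE 0.23, did not pass after adjustment (limma, adjusted p = 0.372).

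The Slpi start site, chr2:164356286-164356867, held 26, 30 and 27 fragments in WT 1, WT 2 and Mapk8-KO 1 and was not called in Mapk8-KO 2, where 19.1 would have been found at the level of the others against a listing minimum of 10. A C/EBP match lay 36 bp from its summit. Regions 10.4 and 27.7 kb upstream were missing from Mapk8-KO 2 alone in the same way. The region 33.1 kb upstream, just beyond the far end of the annotated gene and in an untranslated exon of Matn4, held 25 fragments in WT 1 and 28 and 16 in Mapk8-KO and was not called in WT 2, where 17.7 would have been found against a listing minimum of 8. The regions 7.4 and 26.7 kb upstream were called in all libraries, held 1 and 2 AP-1 matches, and had log2 differences of -0.26 and -0.29 with an SE of 0.23 each, with both WT libraries above both Mapk8-KO libraries on the depth-scaled pileup (limma, adjusted p = 0.728 and 0.690). Their percentiles overlapped between the genotypes, at 32.9 and 46.5 in WT against 36.2 and 38.4 in Mapk8-KO for the first and 64.6 and 65.6 against 58.3 and 74.9 for the second.

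**Figure D4:**
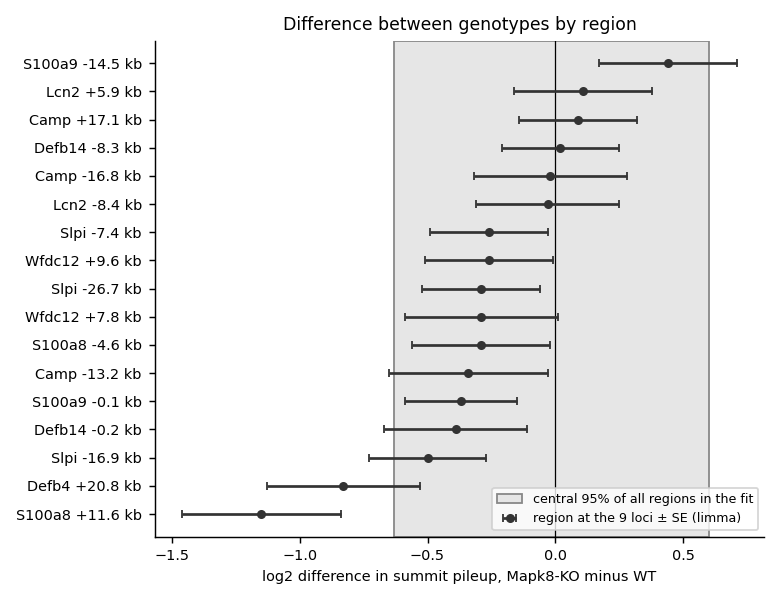
Log2 difference in summit pileup (Mapk8-KO minus WT, with the limma SE as bars) of the 17 regions called in all 4 libraries, named by closest gene and offset from its start in kb. The grey band spans the central 95% of all regions in the fit, -0.63 to 0.60. The regions downstream of S100a8, at -1.15, and of Defb4, at -0.83, lie outside it, and the others lie inside.

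No region near Lcn2, Camp or Wfdc12 passed the limma test. Lcn2 encodes lipocalin 2, which binds bacterial iron carriers, and had no region at its start in any library. Its window held 2 regions, at the starts of the neighbouring genes 1110008P14Rik and Ptges2. They held 39, 26, 34 and 34 fragments and 35, 24, 34 and 23 fragments in WT 1, WT 2, Mapk8-KO 1 and Mapk8-KO 2, with log2 differences of 0.11 (SE 0.27) and -0.03 (SE 0.28). Camp encodes the cathelicidin precursor, a product of neutrophils and of inflamed keratinocytes. The region of its window with the highest average percentile lay at the start of 3000002C10Rik, 17.1 kb away, with 63, 31, 60 and 36 fragments and a log2 difference of 0.09 (SE 0.23). The other shared Camp regions, 13.2 and 16.8 kb upstream, had log2 differences of -0.34 (SE 0.31) and -0.02 (SE 0.30).

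Wfdc12 lies in a cluster of whey acidic protein genes on chromosome 2, and its window held 5 regions. The 2 called in all libraries, 9.6 and 7.8 kb downstream and beside the start of Wfdc5, had log2 differences of -0.26 (SE 0.25) and -0.29 (SE 0.30) and low ranks, at percentiles of 0.829 to 28.1. The first held 47, 36, 46 and 25 fragments and the second 25, 23, 25 and 15 in WT 1, WT 2, Mapk8-KO 1 and Mapk8-KO 2. The remaining 3 were called in WT 1 alone, the library with the most peaks, with 11, 27 and 17 fragments.

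The shares of the 4 motifs at these loci had intervals that covered their shares in the atlas. An AP-1 match lay within 100 bp of the strongest summit in 5 of 34 regions, 14.7% (Wilson 95% interval 6.45 to 30.1), beside 23.7% of all atlas windows of the same length. The 5 were the S100a7a regions 15.3 kb upstream and 4.8 kb downstream, the Slpi regions 7.4 and 26.7 kb upstream, and the Defb4 upstream region. C/EBP matches lay in 4 regions, 11.8% beside 11.4%, STAT matches in 3, 8.82% beside 5.75%, and an NF-kB match in 1, 2.94% beside 5.54%, at the Camp start. The 2 regions with the largest differences held no AP-1 match in their windows. In base composition the loci resembled the atlas, with a median GC content of 49.6% against 49.4%, and 2 of 34 regions were mostly repeat sequence, 5.88% against 5.64%.

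Lists of related genes had median differences of 0.02 to 0.18, where the 9 loci had -0.29. With 50 kb windows the lists had 0.07 to 0.13 and the 9 loci -0.01, and on fold enrichment the lists had 0.00 to 0.12 and the 9 loci -0.06. Other S100 genes, 13 in number and outside the 9 loci, had 45 regions, of which 28 were shared by all libraries with a median log2 difference of 0.12, and 6 of the 28 were lower in Mapk8-KO. Another 22 antimicrobial genes had 62 regions, 29 shared, a median of 0.02 and 13 lower. Receptors and targets of these proteins, among them Tlr4, Ager and Ccr6, had 24 regions, 10 shared, a median of 0.18 and 4 lower. Genes that induce the set, among them Cebpb, Nfkbiz, Stat3 and Il17ra, had 54 regions, 29 shared, a median of 0.12 and 12 lower. WT-specific regions numbered 1 among the inducers and 0 on each of the other related lists, beside 2.17% of the atlas. Mapk8-KO-specific regions numbered 2 among the inducers and 1 on each of the other related lists, beside 1.65% of the atlas. None of the shared regions on these lists passed the limma test. By locus, the median was -0.33 for the 4 shared regions of the S100 trio, -0.39 for the 3 of the defensins, -0.29 for the 3 of Slpi, -0.27 for the 2 of Wfdc12, -0.02 for the 3 of Camp and 0.04 for the 2 of Lcn2. No test compared the lists with each other.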

How the data were processed

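ATAC-seq was performed on sorted keratinocytes from 2 WT and 2 Mapk8-KO samples. Per the study's methods, the authors aligned paired reads to mm10 with Bowtie2, removed multi-mapped and low-quality reads and called peaks in each library with MACS2 (paired-end mode, q below 0.05, summits called). No control library and no Tn5 shift were stated. The authors deposited 1 peak list per library, holding for each peak a score, a fold enrichment (a ratio to local background), a −log10 p-value, a −log10 q-value and the summit position. The largest q in the lists was 0.0097, below the stated threshold, so calls and listing minimums follow that stricter limit. Reads per region were not used here, so the study's count test was not run. Read depth was not given in the files.

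Summit pileups were recovered from the deposited fold and −log10 p values as the whole number of fragments that gave both (tolerance 0.05 fragments). Peaks were merged at 1 bp overlap into 82641 regions, and genes and their starts were taken from GENCODE vM21 basic (mm10). The percentile is the percent of shared regions with a lower fold in the same library. A listing minimum is the lowest pileup that would have been listed at the local background of the other libraries. Log2 pileups were centred on each library's median and compared with limma 3.58.1 in R 4.3.3 (variance trend, Benjamini-Hochberg adjustment over 40159 regions, adjusted p below 0.05), and single values with exact permutation tests over the 6 label assignments. On simulated pileups, 178 of 200 regions changed 4-fold were recovered, with 6 false calls. Depth factors were 0.740 to 1.33 and median summit pileups 26 to 36 fragments, so counting error was large for single regions. Replicate numbers were shared by the genotypes without a stated pairing. Members, lists and tests were chosen with earlier results of these data known. Named regions were those at each gene's start, that with the highest average percentile in its window and any specific, ranked or called region. Alternatives were other windows, overlaps, thresholds, normalizations and rank measures, leaving out each library, and a replicate block. Scaling by the median of ratios, the summit distances, the counts of regions without overlap, the alternatives for related lists and the marker sum without Krt14 were added after the data were seen.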

Additional observations from a re-analysis of the deposited data

How the results depend on the processing

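Of 91 alternative values for 8 results, 59 stayed on the same side of their thresholds or within the allowed range, 32 moved and none turned its direction. The causes were not tested. The 1 region called by limma was the gap between S100a8 and S100a9, and the number of regions called at the loci fell from 1 to 0 with a 5 kb window (which leaves that region out), with peaks required to cover 50% of a region or with lists of equal length (which drop its peak in Mapk8-KO 2 and in Mapk8-KO 1, in this order), on log2 fold enrichment, after quantile normalization, without the variance trend, and with centring by the median of ratios, which was added after the data were seen. The median log2 difference was -0.01 with a 50 kb window, -0.06 on fold enrichment and -0.33 with centring by the median of ratios. WT-specific regions numbered 2 with a 50 kb window and 0 with lists of equal length. Regions ranked higher in WT numbered 1 with a 5 kb window and 1 with the 50% cover, and 5 when ranked by pileup. Regions ranked higher in Mapk8-KO numbered 1 with a 50 kb window, 1 when ranked by −log10 p and 1 when ranked by pileup.

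Leaving out each library in turn gave 1 to 6 WT-specific regions (6 without Mapk8-KO 1, 4 without WT 2, 2 without WT 1), 0 to 2 Mapk8-KO-specific regions (2 without either Mapk8-KO library), 0 to 1 limma calls (0 without WT 1, WT 2 or Mapk8-KO 2), a median log2 difference of -0.29 to -0.16 (-0.16 without WT 2, -0.24 without Mapk8-KO 2), 4 to 5 regions ranked higher in WT (5 without Mapk8-KO 1) and 0 to 2 ranked higher in Mapk8-KO (2 without Mapk8-KO 2). A lone library was then assumed to vary like the other genotype's pair. The specific and ranked classes were then less strict over the whole atlas too. The replicate block left 1 limma call at the loci and the median at -0.29. Over all 40159 regions limma called 243, of which 199 were lower in Mapk8-KO, and called 386 with the replicate block, 94 with the median of ratios (86 lower), 29 after quantile normalization, 0 on fold enrichment (2731 at an unadjusted p below 0.05) and 0 without the variance trend (3987 at an unadjusted p below 0.05). Whether the replicate numbers mark pairs was not stated, and these values cannot decide it. Over all shared regions the difference between replicates 1 and 2 correlated between the genotypes at r = 0.0392. The call difference was -3 in both pairs. Both replicate 1 libraries were deeper than both replicate 2 libraries, with relative depths of 1.00 and 1.10 against 0.694 and 0.612. Summit pileups of about 26 to 36 fragments limit what single regions can show.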
